A study of Homo sapiens with 6 samples.

Results

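Splicing and RNA-binding factors are the proteins that recognise, cut, join, cap off and remodel RNA transcripts. They were chosen by symbol: the SRSF, SRRM, SF3A, SF3B, U2AF, SNRP, SNRNP, LSM, PRPF, HNRNP, RBM, DDX, DHX, CPSF, CSTF, CELF, MBNL and RBFOX names, leaving out DDX58. The rule found 135 transcripts of 129 genes among the 10191 transcripts of the table. Of these, 123 transcripts of 119 genes had a mean of at least 10 normalized counts over the libraries and could be tested, as could 8600 transcripts in all. The other 12 had means from 1.92 to 9.07 and were not tested. A normalized count is a recovered read count put on the authors' own scale for that library.

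The cells were Huh7, an established line from a human hepatocellular carcinoma, grown in DMEM and harvested 1 week after puromycin selection for a short hairpin RNA. Scrambled hairpin cells gave 3 libraries (scrambled replicates 1 to 3, in that order wherever values are listed) and cells with a hairpin against ABL1, a tyrosine kinase gene, gave 3 more (knockdown replicates 1 to 3). Selection and culture were common to both groups, no source used here gives the hairpin sequence or the number of hairpins, and no label says that replicates were separate cultures. All p-values therefore rest on how far these libraries differ, and that spread may be technical only.

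Introns are removed by the spliceosome, which assembles on each intron from small nuclear ribonucleoproteins (snRNPs). The U1 and U2 snRNPs mark the 5′ splice site and the branch point, the tri-snRNP of U4, U6 and U5 then joins, and helicases of the DEAD (DDX) and DEAH (DHX) families rearrange the RNA at each step. SR proteins mostly promote and hnRNP proteins often repress the use of nearby exons, and cleavage and polyadenylation factors make the 3′ end. Many RBM, DDX and DHX proteins act elsewhere, in ribosome assembly, export, translation, decay or RNA sensing.

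As a check of the labels, ABL1 transcript NM_007313 had 73.4, 71.7 and 71.3 normalized counts with the scrambled hairpin and 13.7, 10.2 and 9.28 with the ABL1 hairpin, while the scarcer NM_005157 was higher in the knockdown (8.74 against 20.5 on average). Libraries held 6651413 to 10487862 recovered reads, and no pair within a group was a duplicate (chi-square per degree of freedom 5.24 to 9.23). Of 11 hepatocyte markers 8 were in the table, 7 were tested, 5 fell and 0 rose, and the 8 summed to 508167 to 576270 normalized counts with the scrambled hairpin and 418893 to 466942 with the ABL1 hairpin. The 3 biliary markers in the table summed to 8241 to 9478 and 5668 to 6130, the 4 fibroblast markers to 8552 to 9566 and 11910 to 13292, the 3 endothelial markers to 159 to 173 and 114 to 138, and the 2 immune markers, nearly all of it LYZ, to 5679 to 6298 and 6526 to 7467. Of the fibroblast markers 2 rose and 1 fell, and of the endothelial markers 1 rose and 2 fell. The part of these markers in the results was not tested.

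Across the splicing and RNA-binding factors, the knockdown libraries had lower levels more often than higher ones: 36 transcripts fell and 18 rose. The test was limma on log2(normalized count + 1), with Benjamini-Hochberg adjustment over all 8600 transcripts and a threshold of 0.05. Called transcripts made up 43.9% of the members tested, against 51.9% of all transcripts tested. Falls were 29.3% of the members and 27.4% of all transcripts, and rises were 14.6% and 24.5%. The median log2 change was -0.10 over the members, with the middle of their values from -0.40 to 0.17 (quartiles), and 0.00 over all transcripts (-0.44 to 0.43). In bulk RNA, fewer cells that make a transcript and less of it per cell cannot be told apart.

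The split between directions depended on how libraries were scaled. With libraries set to equal totals, 25 members fell and 30 rose, so that rises went from 33.3% to 54.5% of the called members, and from 47.2% to 63.6% of all called transcripts. That scaling raised the median of all transcripts by 0.17 on the log2 scale, and moved the members' median to 0.07. With quantile normalization 32 fell and 23 rose (41.8% rises). All 18 rises and 25 of the 36 falls passed the threshold under each of the 3 other scalings. By role, equal totals gave 5 rises and 1 fall for the U1, U2 and SF3 group, 9 rises for the DDX group, 2 for the tri-snRNP and PRPF group and 1 each for the LSM, SR and CPSF/CSTF groups. The falls lost with equal totals numbered 11, and each of them had the same sign there: SNRPF, LSM14B, LSM6, SF3B5, SNRPA, SNRNP25, RBMX, RBM25, DDX31, DDX55 and the non-coding HNRNPDL transcript.

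**Figure D1:**
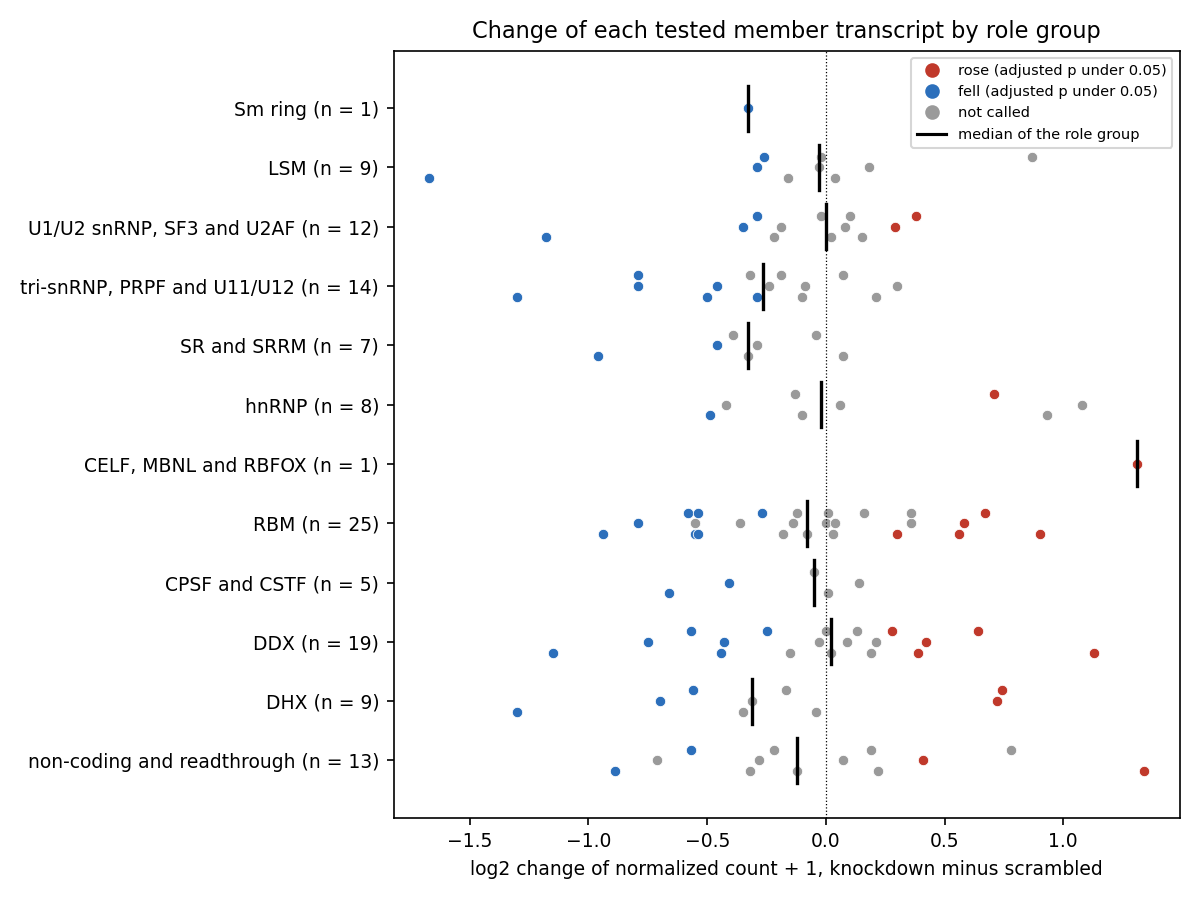
Log2 change of normalized count + 1 (horizontal axis, knockdown minus scrambled) for the 123 tested transcripts, 1 point each, by role group, with the median of each group as a black bar. Called falls (36, blue) outnumber called rises (18, red), and most role groups hold points on both sides of 0.

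Large changes were few. Only 8 members (6.5%, against 16.9% of all transcripts) were called with a change of at least 2-fold. The falls were LSM7, SNRNP200, a DHX8 transcript, SNRPA1 and DDX41, and the rises were RBM26-AS1, a CELF1 transcript and DDX60. Groups did not overlap for 62 members (50.4%, against 58.9% of all transcripts). The members were more abundant, with a median of the mean normalized counts of 475, against 191 for all transcripts tested. Their median standard deviation within groups was 0.13 on the log2 scale, against 0.17. The part of level in these shares was not tested.

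Sm and LSM proteins form the rings that hold the U-rich tails of snRNAs and, for some LSM proteins, of messenger RNAs bound for decay. SNRPF was the only Sm ring gene in the table. It had 1504, 1799 and 1571 normalized counts in control cells and 1290, 1325 and 1253 after knockdown, which did not overlap (log2 change -0.33, SE 0.08, adjusted p = 0.00533). Of 9 LSM transcripts 3 fell (33.3%, against 27.4% of all transcripts) and 0 rose (against 24.5%). LSM7, a subunit shared by the nuclear ring on U6 and the cytoplasmic decay ring, had 2349, 1970 and 1900 normalized counts under the scrambled hairpin and 640, 617 and 687 under the ABL1 hairpin. That is the largest fall among the members (3.19-fold; log2 change -1.67, SE 0.09, adjusted p = 4e-08). The gene lies on chromosome 19, from 2321521 to 2328586 (GRCh38).

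Of the other ring subunits tested, LSM2 varied too much between libraries for a statement (6.72 to 192 normalized counts, log2 change 0.87, SE 0.87). LSM6 fell from 442 ± 23.1 to 370 ± 25.7 (SD, n = 3 in each group here and below; log2 change -0.26, limma adjusted p = 0.0452), a call lost in 10 of 18 other fits. LSM3 (1262 ± 160 and 1435 ± 232) and LSM8 (567 ± 78.4 and 584 ± 81.3) had overlapping groups and were not called, with log2 changes of 0.18 and 0.04, though LSM3 passed as higher with equal totals (0.35, adjusted p = 0.031). LSM14B, a protein of RNA granules, fell by 0.29 on the log2 scale.

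Among the proteins of U1, U2 and branch point recognition, 3 transcripts fell and 2 rose of 12 tested. These are 25% and 16.7%, against 27.4% and 24.5% of all transcripts. SNRPA1, which encodes the A′ protein of the U2 snRNP, had 1329, 1388 and 1248 normalized counts with the scrambled hairpin and 619, 611 and 521 with the ABL1 hairpin. Every knockdown library was below every scrambled one, 2.27-fold on average (log2 change -1.18, SE 0.09, adjusted p = 5.02e-07). SNRPA, the A protein of the U1 snRNP, went from 2013 ± 64.1 to 1647 ± 118 (log2 change -0.29) and SF3B5, a small SF3B subunit, from 1627 ± 59.8 to 1281 ± 72.9 (-0.35).

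Subunits of SF3A, which links the U2 snRNA to the branch point complex, moved the other way. SF3A3 had 1533, 1731 and 1533 normalized counts in control cells and 2118, 2137 and 1991 after knockdown (log2 change 0.38, SE 0.08, adjusted p = 0.00122). SF3A1 rose from 2854 ± 133 to 3495 ± 260 (0.29, adjusted p = 0.00703), and SF3A2 did not pass (-0.22, adjusted p = 0.0607). SF3A2 had a lower mean in the knockdown (2822 ± 208 and 2424 ± 284) with overlapping groups.

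The other SF3B subunits were not called. SF3B1, which clamps the branch point, had 4136, 4511 and 4501 normalized counts under the scrambled hairpin and 4750, 4873 and 4305 under the ABL1 hairpin (transcript NM_012433, log2 change 0.08, SE 0.07). SF3B2 (0.02), SF3B3 (-0.02), SF3B4 (0.15) and SF3B6 (-0.19) also had overlapping groups and were not called. With equal totals SF3B1 (0.26, adjusted p = 0.0128), SF3B2 (0.19, adjusted p = 0.0349) and SF3B4 (0.32, adjusted p = 0.0095) passed as higher. With quantile normalization all 3 passed at 0.24 (adjusted p = 0.0255, 0.00915 and 0.0429), and SF3B3 had a positive sign in both (0.15 and 0.16) without a call. A scarce second SF3B1 transcript, NM_001308824, had 19.2 to 39.6 normalized counts and was not called.

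In the group of the tri-snRNP, the PRPF factors and the minor U11/U12 snRNP, 6 of 14 transcripts fell and 0 rose. The share of falls was 42.9%, against 27.4% of all transcripts, of which 24.5% rose. SNRNP200, the helicase that unwinds U4 from U6 when the spliceosome is activated, had 9976, 10836 and 9710 normalized counts in the scrambled libraries. In the knockdown libraries it had 4399, 4003 and 4018, a fall of 2.46-fold with no overlap (log2 change -1.30, SE 0.07, adjusted p = 4.27e-08). Its gene lies on chromosome 2, from 96274338 to 96305546 (GRCh38), and has 1 RefSeq transcript.

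The 2 tri-snRNP proteins PRPF31 and PRPF3, which hold the U4/U6 part together, also fell: PRPF31 from 76.3 ± 15.5 to 43.6 ± 6.79 (log2 change -0.79) and PRPF3 from 479 ± 74.5 to 335 ± 11.4 (-0.50). Proteins of the minor U11/U12 snRNP did too, SNRNP48 from 853 ± 28.9 to 622 ± 54.4 (-0.46) and SNRNP25 from 470 ± 6.28 to 386 ± 21.4 (-0.29). The SNRNP25 call was lost with quantile normalization (adjusted p = 0.124) and without replicate 3 of the scrambled (0.0633) or knockdown libraries (0.0761). PRPF19, the ubiquitin ligase of the activated spliceosome, was not called, with 7490, 7651 and 7071 normalized counts against 6812, 6624 and 7372 (-0.09, adjusted p = 0.283; 0.08 with equal totals). PRPF6, a tri-snRNP bridging protein, was also not called (3392 ± 171 and 3154 ± 164, -0.10).

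**Figure D2:**
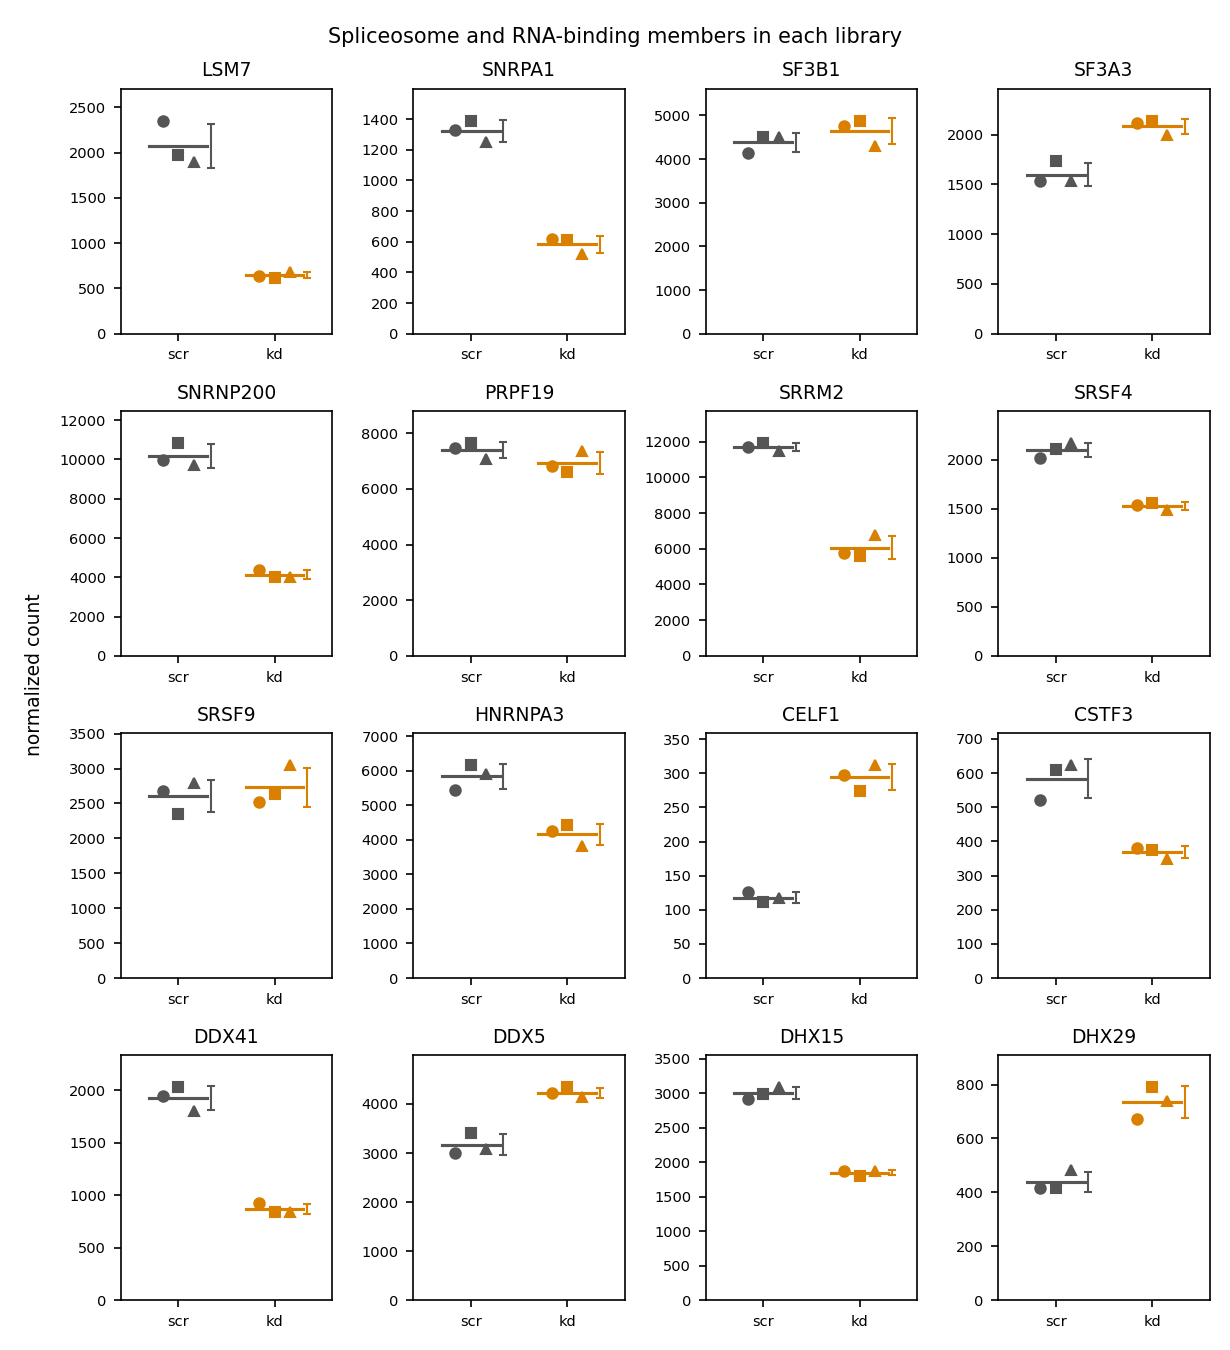
Normalized counts (vertical axes, from 0) of 16 members in the 3 scrambled (scr, grey) and 3 knockdown (kd, orange) libraries, with circles, squares and triangles for replicates 1, 2 and 3, lines at the means and bars of 1 SD. LSM7, SNRPA1, SNRNP200, SRRM2, DDX41 and DHX15 separate widely, CELF1 and DHX29 lie higher in the knockdown, and SF3B1, PRPF19 and SRSF9 overlap.

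Promoter sequences are shown for snRNP genes of each direction. The window is the RefSeq promoter of GRCh38.p14, 250 bases before to 50 after the start, found for 113 of the 129 member genes. The letters CCGGAAG, the core bound by ETS family factors, occurred on either strand in 36.3% of the member promoters, in 18.5% of the promoters of all tested genes and in 10.7% of all promoters in the table. Among members that fell the share was 32.3% (10 of 31), among those that rose 33.3% (5 of 15) and among those not called 40% (24 of 60). A gene with transcripts in 2 of these classes is in both. DHX8, with a match, is among those that fell and those not called. RBM41, without one, is among those that rose and those not called. The motifs were chosen after the values were seen, and a match is a description of the letters alone. The genes shown were picked for holding a match. The windows of LSM7, SNRPF, SNRPA, SF3B5 and PRPF31, which fell, hold none. The stretches below, all upstream of the start and read in the direction of the gene, come from 2 genes that fell (SNRNP200, SNRPA1), 2 that rose (SF3A1, SF3A3) and 2 not called (SF3B2, SF3B6), with the matches in the stretch in capitals, as CTTCCGG where they lie on the other strand. The whole windows of SF3A3 and SF3B6 hold 2 and 3 matches, of which the stretches show 1 each.
SNRNP200, chr2:96305557-96305603, minus strand: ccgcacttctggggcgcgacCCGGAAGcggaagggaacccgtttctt
SNRPA1, chr15:101295335-101295381, minus strand: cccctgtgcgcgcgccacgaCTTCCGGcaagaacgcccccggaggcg
SF3A1, chr22:30356917-30356963, minus strand: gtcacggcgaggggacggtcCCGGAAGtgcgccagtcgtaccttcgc
SF3A3, chr1:37990064-37990110, minus strand: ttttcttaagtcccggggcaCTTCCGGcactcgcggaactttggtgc
SF3B2, chr11:66052291-66052363, plus strand: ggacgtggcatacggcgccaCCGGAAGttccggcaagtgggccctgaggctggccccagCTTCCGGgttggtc
SF3B6, chr2:24076327-24076365, minus strand: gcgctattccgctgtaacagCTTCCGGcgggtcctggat

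The E-box CACGTG, bound by MYC with MAX, was in 12.4% of member promoters and 10.5% of those of all tested genes. It was in 5 of 31 promoters of members that fell, 2 of 15 of those that rose and 7 of 60 of those not called. MYC itself had 2228, 2161 and 2352 normalized counts with the scrambled hairpin and 574, 550 and 608 with the ABL1 hairpin. A link between MYC and the changes of the members was not tested.

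Of the 7 SR and SR-related transcripts 2 fell (28.6%, against 27.4% of all transcripts) and 0 rose (against 24.5%). SRRM2, a very large protein of nuclear speckles and of the spliceosome core, had 11703, 11922 and 11456 normalized counts in control cells and 5770, 5596 and 6782 after knockdown. The groups were far apart (1.94-fold lower, log2 change -0.96, SE 0.08, adjusted p = 9.48e-07). SRSF4, an SR protein, fell from 2018, 2105 and 2168 to 1540, 1556 and 1486 (-0.46, SE 0.07, adjusted p = 0.000164). SRSF9 had overlapping groups (2681, 2342 and 2786 against 2514, 2636 and 3048; log2 change 0.07) and passed as higher with equal totals (0.24, adjusted p = 0.0384). The other 4 transcripts of the group were not called.

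For SRSF3, SRSF6 and SRSF10 the table's row was a transcript that RefSeq annotates as non-coding, so these rows do not measure the coding messenger RNA. SRSF3 (NR_036610) had 69.5 to 108 normalized counts in the scrambled and 68.1 to 83.6 in the knockdown libraries. SRSF6 (NR_034009) had 80.9 to 110 and 87.7 to 145, and SRSF10 (NR_034035) 19.1 to 26.3 and 10.3 to 28.4. None of the 3 was called, and all had overlapping groups.

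The hnRNP proteins coat nascent transcripts. Of 8 tested coding transcripts 1 fell (12.5%, against 27.4% of all transcripts) and 1 rose (12.5%, against 24.5%). HNRNPA3 had 5452, 6157 and 5900 normalized counts under the scrambled hairpin and 4241, 4413 and 3806 under the ABL1 hairpin (log2 change -0.49, SE 0.08, adjusted p = 0.000209). HNRNPA0, a protein of AU-rich RNA, was not called (12510, 10101 and 10981 against 10540, 9977 and 10718; -0.10). HNRNPL, a regulator of exon inclusion, was called as higher (0.71, adjusted p = 0.0428), with 289, 226 and 358 against 266, 623 and 624. Knockdown replicate 1 lay within the scrambled range, and the call did not survive leaving out scrambled replicate 1 (adjusted p = 0.0755) or 2 (0.141), or knockdown replicate 2 (0.159) or 3 (0.148).

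HNRNPA1 encodes a major splicing repressor. Its coding transcript NM_031157 had 15 to 25.3 normalized counts, while HNRNPA1P10, a processed pseudogene of it, had 2822, 3139 and 3307 with the scrambled hairpin and 3283, 4673 and 4507 with the ABL1 hairpin. The pseudogene row was called as higher (log2 change 0.41, adjusted p = 0.0108) although knockdown replicate 1 lay below scrambled replicate 3. No source used here says how reads shared by such copies were counted, so these 2 rows are uncertain. The same holds for RBM4 with RBM4B, and for DDX12P, a copy of DDX11, which fell from 550 ± 49.1 to 371 ± 36.8 (-0.57, adjusted p = 0.000814).

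Among the regulators of the CELF, MBNL and RBFOX families, 1 transcript was abundant enough to test. CELF1, which binds GU-rich RNA in splicing and decay, had 126, 111 and 117 normalized counts with the scrambled hairpin and 298, 274 and 312 with the ABL1 hairpin for transcript NM_001172640. This was the largest rise of a coding member (2.48-fold; log2 change 1.31, SE 0.12, adjusted p = 2.49e-06). The gene has 91 RefSeq transcripts, of which the table holds 2, and the other, NM_006560, had 0.978 to 14.4 normalized counts. Reads that several transcripts share cannot be placed, so the change is that of this row and not of the gene. CELF5 (2.06 to 10.8) and MBNL3 (0.978 to 5.6) were not tested.

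RBM proteins carry RNA recognition motifs and have varied roles, and 7 of 25 transcripts fell and 5 rose. These are 28% and 20%, against 27.4% and 24.5% of all transcripts. RBM22, which contacts the catalytic core, had 501, 676 and 599 normalized counts in control cells and 291, 321 and 306 after knockdown (log2 change -0.94, SE 0.12, adjusted p = 2.56e-05). RBM8A, the Y14 subunit of the exon junction complex, fell from 1533, 1662 and 1588 to 1108, 1096 and 996 (-0.58, SE 0.08, adjusted p = 5.28e-05). RBM25, an SR-like regulator, fell from 1423 ± 127 to 1177 ± 52.2 (-0.27), without a call when scrambled replicate 2 (adjusted p = 0.074) or knockdown replicate 1 (0.0659) was left out.

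Other RBM falls were RBM14, a paraspeckle protein (788 ± 49.2 to 456 ± 47.3, log2 change -0.79), RBM33 (1643 ± 17.6 to 1131 ± 59.1, -0.54), the cold-inducible RBM3 (3023 ± 188 to 2082 ± 160, -0.54) and RBMX (295 ± 36.1 to 204 ± 47.1, -0.55). The RBMX call was lost without scrambled replicate 3 (adjusted p = 0.0686) or knockdown replicate 3 (0.0567). RBM42 and RBM15B, a cofactor of RNA methylation, were not called (-0.12 and 0.01; RBM42 was at 0.05 with equal totals).

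The 5 RBM rises were RBM4B, RBM43, RBM41, RBM4 and RBM12B. RBM4B had 147, 176 and 147 normalized counts under the scrambled hairpin and 246, 326 and 308 under the ABL1 hairpin (log2 change 0.90, SE 0.14, adjusted p = 0.000169). Its near copy RBM4 rose from 319 ± 84.7 to 472 ± 81 (0.58, adjusted p = 0.0131), a call lost without scrambled replicate 1 (0.054) or knockdown replicate 2 (0.0574). RBM43 rose from 173, 187 and 190 to 299, 283 and 296 (0.67, adjusted p = 0.00028), with little spread in either group. RBM12B rose from 492 ± 36.3 to 606 ± 29.4 (0.30), without a call when scrambled replicate 2 (0.0659) or knockdown replicate 3 (0.0519) was left out. RBM41 had 2 tested transcripts, of which NM_001171080 rose (122 ± 7.74 to 181 ± 5.73, 0.56) and NM_018301 did not pass (0.36). The 2 tested transcripts of RBM19, a protein of ribosome assembly, had log2 changes of -0.36 and 0.36 and neither was called.

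At the 3′ end, 2 of 5 transcripts fell (40%, against 27.4% of all transcripts) and 0 rose (against 24.5%). CPSF1, the largest subunit of the complex that reads the polyadenylation signal, had 8332, 7269 and 7703 normalized counts with the scrambled hairpin and 5829, 5417 and 6256 with the ABL1 hairpin (log2 change -0.41, SE 0.08, adjusted p = 0.000771). CSTF3, the scaffold of the factor that binds downstream of the cleavage site, fell from 520, 609 and 623 to 382, 376 and 348 (-0.66, SE 0.10, adjusted p = 0.000158). CPSF2 (-0.05) and the nuclease CPSF3 (0.01; 565 ± 55.9 and 565 ± 12.1) showed no difference beyond the spread. CSTF3-DT, a non-coding RNA that runs divergently from the CSTF3 promoter, had 20, 13.4 and 15 against 5.87, 10.2 and 13.4 (-0.71, adjusted p = 0.16), so it was not called.

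Of 19 DDX helicase transcripts 6 fell (31.6%) and 5 rose (26.3%), and of 9 DHX transcripts 3 fell (33.3%) and 2 rose (22.2%). Of all transcripts 27.4% fell and 24.5% rose. The 7 tested transcripts of spliceosome helicases are of 6 genes, since DHX8 has 2. They gave 3 falls (42.9%, against 27.4% of all transcripts) and 1 rise (14.3%, against 24.5%). Their median log2 change was -0.35, the value of the DHX8 transcript that was not called. DDX41, a helicase of the late spliceosome that also senses DNA, had 1948, 2028 and 1806 normalized counts in control cells and 922, 843 and 839 after knockdown (log2 change -1.15, SE 0.08, adjusted p = 2.17e-07). DHX15, which takes the spent spliceosome apart, fell from 2923, 2997 and 3088 to 1879, 1806 and 1870 (-0.70, SE 0.07, adjusted p = 3.28e-06). In both genes every knockdown library was below every scrambled one.

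DHX8, which releases the spliced messenger RNA, had 2 tested transcripts. NM_001302623 fell from 50, 42.6 and 24.4 to 14.7, 20.3 and 10.3 (log2 change -1.30, adjusted p = 0.00797). The more abundant NM_004941 was not called (89.7 ± 6.16 and 70.5 ± 11.7, -0.35, adjusted p = 0.125), though its groups did not overlap. With reads summed per gene, DHX8 was called as lower (-0.58, limma adjusted p = 0.011). DHX38 and DDX23, helicases of the catalytic steps and of tri-snRNP entry, were not called (-0.04 and -0.03; 0.14 and 0.15 with equal totals), with 3319 and 2731 normalized counts in the knockdown on average. DDX5, a helicase of splicing, transcription and microRNA processing, rose from 3003, 3411 and 3089 to 4221, 4340 and 4133 (0.42, SE 0.07, adjusted p = 0.000372).

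The 9 tested helicases of ribosome biogenesis gave 5 falls (55.6%, against 27.4% of all transcripts) and 0 rises (against 24.5%). Their median log2 change was -0.25, and the list was chosen with earlier results known. With equal totals DDX31 (adjusted p = 0.0872) and DDX55 (0.512) were not called, and DDX28 passed as higher (0.36, adjusted p = 0.0192). DDX10 fell from 568 ± 54.6 to 383 ± 34.9 (log2 change -0.57), DHX37 from 948 ± 69.5 to 647 ± 102 (-0.56), DDX51 from 577 ± 28.8 to 425 ± 24.4 (-0.44), DDX31 from 271 ± 30.7 to 200 ± 8.42 (-0.43) and DDX55 from 485 ± 13.7 to 408 ± 27.6 (-0.25). The DDX55 call was lost when any 1 library but knockdown replicate 2 was left out (adjusted p = 0.0639 to 0.14). DDX18 (0.00) and DDX27 (0.02) were not called and their groups overlapped.

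Outside those sets, DHX29, a translation initiation helicase, rose from 418, 418 and 482 to 673, 790 and 740 normalized counts (log2 change 0.74, SE 0.10, adjusted p = 4.93e-05). DHX32 rose from 159 ± 13.8 to 264 ± 26.3 (0.72), DDX1 from 1602 ± 114 to 1942 ± 47.1 (0.28) and DDX59 from 247 ± 24 to 326 ± 37.9 (0.39). The DDX59 call did not survive leaving out scrambled replicate 1 (adjusted p = 0.0567) or 3 (0.0571), or knockdown replicate 2 (0.0716). DDX43, a helicase mostly of testis and tumours, fell from 134, 118 and 121 to 72.4, 66.7 and 81.5 (-0.75, adjusted p = 0.00175).

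DDX60 and DDX60L, neighbouring genes on chromosome 4 that interferon induces, both rose. DDX60 had 40, 24.7 and 26.3 normalized counts under the scrambled hairpin and 65.5, 73.5 and 59.8 under the ABL1 hairpin (log2 change 1.13, SE 0.24, adjusted p = 0.00182). DDX60L had 62.5, 71.7 and 80.7 against 108, 115 and 111 (0.64, SE 0.17, adjusted p = 0.00626). The letters GAAANNGAAA of the interferon-stimulated response element occurred on either strand in 2.67% of the promoters of all tested genes, in 3.54% of all member promoters (4 of 113) and in 3 of the 15 promoters of members that rose, those of DDX60, DDX60L and RBM41. It was in 1 of 31 promoters of members that fell, that of DHX15, and in 1 of 60 of members not called, which is again RBM41 through its second transcript. The motif was picked with these values in view. The upstream stretches of the helicase pair, with both matches of each in capitals, show the repeated element.
DDX60, chr4:168318776-168318860, minus strand: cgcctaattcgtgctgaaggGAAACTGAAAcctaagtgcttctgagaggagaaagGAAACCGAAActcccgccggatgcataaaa
DDX60L, chr4:168480513-168480592, minus strand: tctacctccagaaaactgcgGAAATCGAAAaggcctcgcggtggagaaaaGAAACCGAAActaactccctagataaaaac

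Of the 13 tested non-coding rows 2 fell (15.4%, against 27.4% of all transcripts) and 2 rose (15.4%, against 24.5%). RBM26-AS1, antisense to RBM26, rose from 35.9, 22.4 and 33.8 to 89, 89.3 and 58.8 normalized counts (2.53-fold; log2 change 1.34, SE 0.25, adjusted p = 0.000779). No source used here says whether the counting used strand, so reads of an antisense RNA and of its partner cannot be told apart, and RBM26 itself was not analysed here. A non-coding HNRNPDL transcript fell from 32.5, 67.2 and 37.5 to 22.5, 22.6 and 23.7 (-0.89, adjusted p = 0.0228), without a call when scrambled replicate 2 was left out (0.122). The 4 other antisense rows tested had 4.17 to 33.6 normalized counts and were not called.

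Some members varied strongly between libraries of 1 group. Among the 92 with a mean of at least 100 normalized counts, 4 (4.35%) had a standard deviation within groups of at least 0.5 on the log2 scale, against 1.34% of all transcripts at that level. DDX24, a nucleolar helicase, had 433, 221 and 54.4 with the scrambled hairpin and 150, 667 and 38.2 with the ABL1 hairpin, from 37 to 590 reads. PRPF8, the core scaffold of the spliceosome, had 2564, 1840 and 834 against 1007, 1026 and 1941. LSM12 had 438, 581 and 888 against 699, 853 and 272, and HNRNPL is given above. LSM2, at a lower mean, ran from 6.72 to 192, with its highest values in scrambled replicate 3 and knockdown replicate 2. Knockdown replicate 2 had the highest value of DDX24 and of LSM2. It was close to the highest for LSM12 (853 against 888) and HNRNPL (623 against 624), but not for PRPF8 (1026 against 2564). No library was high in all of these rows, and the reason for the spread was not tested. DDX24, PRPF8, LSM12 and LSM2 were not called (adjusted p = 0.898, 0.436, 0.729 and 0.429). These rows do not allow a statement on the knockdown in either direction.

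**Figure D3:**
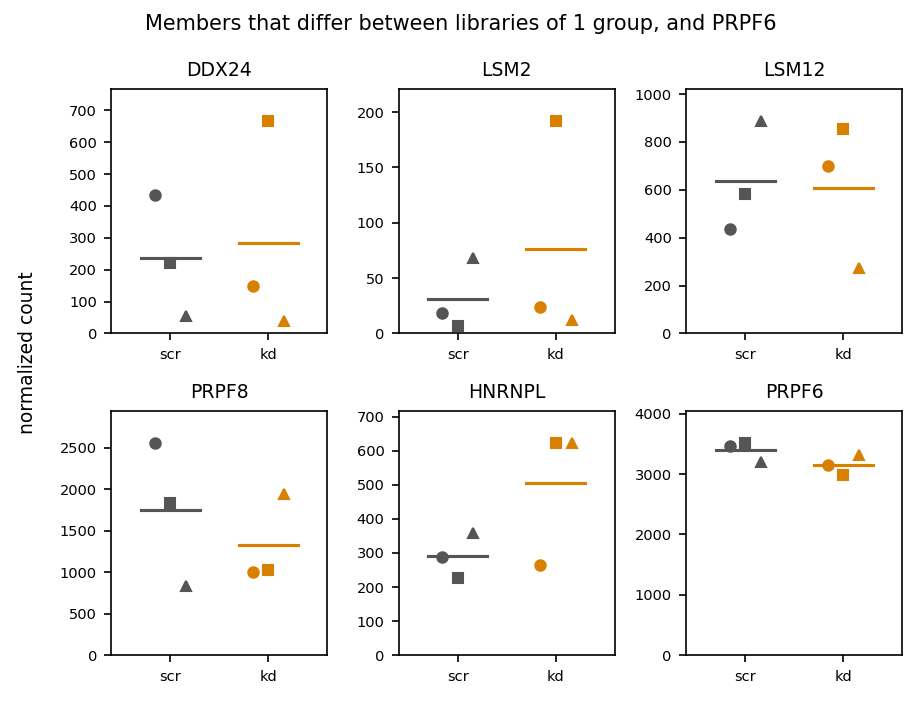
Normalized counts (vertical axes, from 0) of DDX24, LSM2, LSM12, PRPF8, HNRNPL and, for comparison, PRPF6 in the scrambled (scr, grey) and knockdown (kd, orange) libraries, with circles, squares and triangles for replicates 1, 2 and 3 and lines at the means. In DDX24 the values run from 38.2 to 667, while the 6 values of PRPF6 lie together.

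The number of RefSeq transcripts of a gene went with the balance of directions. Of 66 tested members whose gene has 1 RefSeq transcript, 23 fell and 6 rose, with a median log2 change of -0.13. Of 57 tested members whose gene has several, 13 fell and 12 rose, with a median of 0.01. Over the whole table the corresponding shares were 31.1% falls and 25.2% rises for genes with 1 transcript, and 23.1% and 23.4% for genes with several. The classes also differed in level. The median of the mean normalized counts was 780 for members with 1 transcript and 235 for those with several (284 and 126 over the whole table). The difference between the classes was not tested, nor was the part of level in it. No source used here says how reads shared between transcripts were assigned.

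Splicing and RNA processing genes outside the naming rule were read from lists made by function. Of 26 tested transcripts of other spliceosome and snRNP assembly genes, 6 rose (23.1%, against 24.5% of all transcripts) and 4 fell (15.4%, against 27.4%). The rises numbered 3 without scrambled replicate 3 or any 1 knockdown library, and with equal totals 9 rose and 1 fell. CWC15, a protein of the PRPF19 complex, rose from 331 ± 44.5 to 607 ± 32 normalized counts (log2 change 0.88) and STRAP, of the SMN complex, from 2638 ± 141 to 3741 ± 164 (0.50). ZRSR2, of the minor spliceosome, rose by 0.32 and a scarce non-coding USP39 transcript by 1.30. GEMIN4, another SMN complex protein, fell from 1074 ± 81.4 to 531 ± 64.9 (-1.02), and ZMAT2 (-0.34), SART1 (-0.33) and BUD31 (-0.30) fell as well, these 3 without a call at equal totals. Leaving out 1 library ended the ZRSR2 call for scrambled replicate 3 (adjusted p = 0.105) and each knockdown replicate (0.0569 to 0.0678), the USP39 call for scrambled replicate 2 (0.0582) and knockdown replicate 3 (0.077), and the BUD31 call for scrambled replicates 1 and 2 and knockdown replicates 1 and 3 (0.0583 to 0.0985).

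Of 21 tested transcripts of other splicing regulators and SR kinases, 6 fell (28.6%, against 27.4% of all transcripts) and 1 rose (4.76%, against 24.5%). ESRP2, an epithelial splicing regulator, had 1192, 1040 and 1062 normalized counts with the scrambled hairpin and 438, 316 and 444 with the ABL1 hairpin (log2 change -1.47, adjusted p = 1.06e-06). The RNA stability factor ELAVL1 fell from 2392 ± 100 to 1477 ± 45.1 (-0.69), FUBP3 from 3257 ± 163 to 2054 ± 38.5 (-0.66) and KHSRP from 8349 ± 238 to 6305 ± 329 (-0.41). The rise was in the nuclear speckle scaffold SON, transcript NM_001291411 (174 ± 22.4 to 232 ± 11.9, 0.42), not called without replicate 1 of the scrambled (adjusted p = 0.0638) or knockdown libraries (0.0615).

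In the list of exon junction, export and nonsense-mediated decay genes, 8 of 16 transcripts fell and 1 rose. These are 50% and 6.25%, against 27.4% and 24.5% of all transcripts. THOC3, a subunit of the export complex THO, fell from 2052, 1834 and 1695 to 806, 717 and 631 normalized counts (log2 change -1.37, adjusted p = 3.58e-07). CASC3, an exon junction complex subunit, fell from 2669 ± 128 to 1359 ± 39.5 (-0.97), THOC2 by 0.57 and SMG5, a decay factor, by 0.43 on the log2 scale. SMG6, the decay endonuclease, rose from 319 ± 32.6 to 486 ± 29.1 (0.61).

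Of 11 tested transcripts of other 3′ end processing genes, 4 rose (36.4%, against 24.5% of all transcripts) and 4 fell (36.4%, against 27.4%). Only 1 fall, that of PAPOLG, was called with equal totals, with quantile normalization, without the trend, without scrambled replicate 1 or without knockdown replicate 2. PAPOLG, a poly(A) polymerase, fell from 350 ± 26 to 135 ± 21.4 normalized counts (log2 change -1.37), and ZC3H3 (-0.43) and SYMPK (-0.24) fell. PABPN1 (0.90), PCF11 (0.50) and NUDT21 (0.20), which bind the tail, the polymerase and the upstream signal, rose. For PABPN1 the values were 160, 127 and 161 against 163, 328 and 401, so knockdown replicate 1 lay barely above the scrambled range. The PABPN1 call was lost in limma without the trend (adjusted p = 0.074). WDR33, which contacts the polyadenylation signal, had a transcript of each direction, NM_018383 at -0.26 and the scarcer NM_001006622 at 0.75. The calls of SYMPK (adjusted p = 0.072 to 0.151) and NUDT21 (0.0837 to 0.12) were each lost in 4 of 6 fits that left out 1 library: SYMPK without scrambled replicates 1 or 2 or knockdown replicates 1 or 2, and NUDT21 without scrambled replicates 1 or 3 or knockdown replicates 1 or 2.

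**Figure D4:**
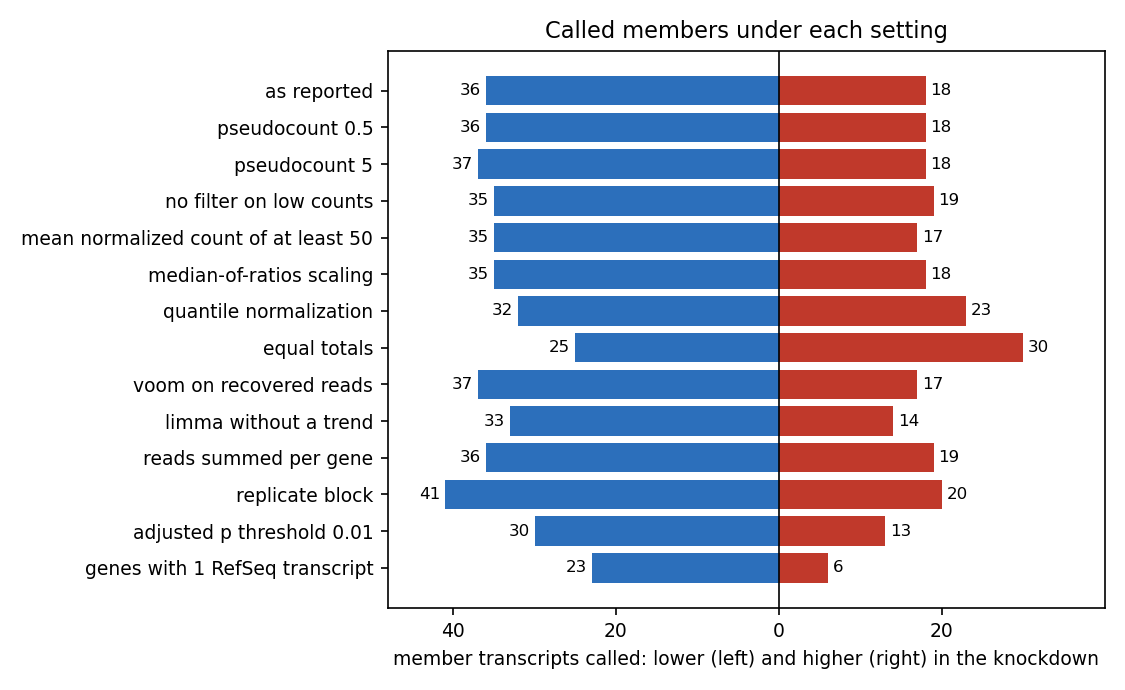
Number of member transcripts called lower (left, blue) and higher (right, red) in the knockdown under each setting of the analysis, as bars from 0. Falls outnumber rises in each setting shown except equal totals, where 25 fell and 30 rose.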

How the data were processed

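RNA-seq of 3 scrambled and 3 ABL1 knockdown Huh7 libraries was analysed from 1 deposited table. HISAT2 2.0.4, HTSeq 0.6.1 and build hg38 are named in the submitters' processing notes with no role; no source used here gives the annotation, strand setting or row filter. The values are a signal that the authors deposited on a scaled square-root scale: squared and divided by a step per library, 100% of rows are a whole number plus 0.375 (tolerance 0.05). The recovered reads times the relative step, the authors' scale factor, are the normalized counts.

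The fit was limma 3.58.1 in R 4.3.3 with a mean-variance trend, two-sided, on transcripts with a mean of at least 10, with a pseudocount of 1. Log2 changes are on that scale and understate changes of low transcripts. It was tested on simulated data. Promoters are RefSeq's (GRCh38.p14). Libraries held 6651413 to 10487862 recovered reads. All 135 member rows matched the RefSeq reference.

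The members, lists and role groups were chosen with earlier results of these data known. Named were ABL1 and MYC and, per role group, up to 5 rises and 5 falls by smallest p and the 2 members with the highest mean, plus every called member with a log2 change of at least 1 in size and non-overlapping groups, every symbol with several tested rows and the called members of the 3 helicase subsets. From each other list, up to 4 rises and 4 falls were named. The motifs, the bounds on spread and further members named beside these were picked with their values in view. The alternatives changed pseudocount, filter, scaling, trend, weights, scale of the values, summing per gene, the replicate block, the libraries entered and the threshold. A member of the tri-snRNP and PRPF group is counted but not reported here.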

Additional observations from a re-analysis of the deposited data

How the results depend on the processing

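Over the named transcripts and alternatives, 2029 values had the same direction and side of the threshold, 119 lost the call, 16 gained one and 47 changed sign. The sign changes were of transcripts not called as reported, except WDR33 NM_001006622 (-0.21) and ABL1 NM_005157 (-1.33) with reads summed per gene, where the value is that of the gene's transcripts together. That setting also gave -0.11 for RBM19 NM_016196. With equal totals, LSM12 was at 0.02, SF3B3 0.15, PRPF6 0.07, PRPF19 0.08, HNRNPA0 0.07, RBM42 0.05, CPSF2 0.12, DDX24 0.03, DDX23 0.15 and DHX38 0.14. With quantile normalization, SF3B3 was at 0.16, PRPF19 0.09, HNRNPA0 0.15, HNRNPA1 -0.06, CPSF2 0.06, DDX23 0.07 and DHX38 0.07. DDX24 was at 0.78 on the deposited square-root values. Leaving out 1 library, values on both sides of 0 ran from -0.48 to 0.34 for LSM12, -0.07 to 0.14 for LSM8, -0.27 to 1.70 for LSM2, -0.07 to 0.03 for SF3B3, -0.04 to 0.06 for SF3B2, -0.18 to 0.34 for SF3B1 NM_001308824, -0.78 to 0.03 for PRPF8, -0.01 to 0.13 for SRSF9, -0.10 to 0.26 for HNRNPA1, -0.09 to 0.10 for RBM15B, -0.07 to 0.07 for CPSF3, -1.19 to 0.86 for DDX24, -0.10 to 0.02 for DDX23, -0.04 to 0.09 for DDX27 and -0.66 to 0.03 for SRSF10.

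Of the called members, 37 of 54 (12 rises, 25 falls) had the call in each of the 18 alternative fits that held their row. The fit with a minimum mean of 50 left out DDX60 and DHX8 NM_001302623, which are counted among the 37. Where counts moved, the cause was not tested, except that genes with 1 RefSeq transcript (6 rises, 23 falls) and the threshold of 0.01 can only lower a count. Rows with a mean under 50 were also absent from the fit with that filter. With equal totals 30 members rose and their median was 0.07. In that scaling rises numbered 1 for LSM, 5 for U1, U2 and SF3, 2 for the tri-snRNP group, 1 for SR, 1 for CPSF and CSTF, 9 for DDX, 3 for other splicing regulators and 2 for exon junction, export and decay genes. Falls there numbered 0 for the Sm ring and 5 for exon junction, export and decay genes, and 1 each for LSM, U1, U2 and SF3, non-coding rows, other spliceosome genes and other 3′ end genes. Quantile normalization gave a median of -0.06, 5 rises for U1, U2 and SF3, 1 rise for the tri-snRNP group, 1 fall for other 3′ end genes and 5 for exon junction, export and decay genes. Without the trend, rises were 1 for U1, U2 and SF3, 0 for hnRNP, 1 for non-coding rows and 2 for other 3′ end genes, which had 1 fall. The hnRNP rises were 2 without a filter, 2 with reads summed per gene and 0 with voom. The hnRNP falls were 2 with a pseudocount of 5, median-of-ratios scaling, voom or the deposited square-root values. With a minimum mean of 50 the non-coding rows had 1 fall, since the HNRNPDL transcript (45.8 and 22.9 on average) was left out of that fit. At a threshold of 0.01, rises were 0 for hnRNP, 3 for RBM, 1 for non-coding rows, 2 for other spliceosome genes, 0 for other splicing regulators and 2 for other 3′ end genes, and falls were 1 for non-coding rows, 2 for other spliceosome genes, 1 for other 3′ end genes and 5 for exon junction, export and decay genes.

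Leaving out 1 library at a time gave 15 to 20 member rises, 33 to 37 falls and a median from -0.14 (without knockdown replicate 2) to -0.08. Rises ran from 0 to 1 for the tri-snRNP group (1 without knockdown replicate 3), from 0 to 2 for hnRNP (2 without knockdown replicate 1; 0 without scrambled replicates 1 or 2 or knockdown replicates 2 or 3), from 3 to 5 for other spliceosome genes (3 without scrambled replicate 3 or any knockdown library) and from 0 to 1 for other splicing regulators (0 without scrambled replicate 1). Falls ran from 1 to 2 for hnRNP (2 without scrambled replicate 2 or knockdown replicate 3), from 1 to 2 for non-coding rows (1 without scrambled replicate 2), from 1 to 4 for other 3′ end genes (1 without scrambled replicate 1 or knockdown replicate 2) and from 5 to 8 for exon junction, export and decay genes (5 without knockdown replicate 1).

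With the replicate number as a block, 20 members rose and 41 fell, with 1 rise in the tri-snRNP group and 2 falls in hnRNP. Libraries of the same number correlated at 0.0471, 0.0765 and 0.0768 in their deviations from the group means, and not every library correlated best with its own number, so the numbers were not taken as pairs.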
